A study of Caenorhabditis elegans with 2 samples.

Results

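The arms of chromosome III of the nematode Caenorhabditis elegans were taken as the outer 30% of its 1 kb bins at each end. Of the 13784 bins of III, 4135 lie in the left arm (up to position 4135000 in the coordinates of the deposited file) and 4135 in the right arm (from 9649001 on). The arms therefore hold 8270 of the 100257 bins of the series, and the centre of III holds 5514. Position alone chose them, so no measured value entered the choice. The bins on either side of both limits carried little signal in the coIP: the 5 bins inside and the 5 bins outside each limit held at most 0.399 ppm, except 4139001 to 4140000 in the centre, with 4.21 ppm. In N2 the highest of these bins was 9651001 to 9652000, just inside the right arm, with 23.3 ppm.

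The study sequenced small RNA of young adult hermaphrodites in 2 libraries. One is labelled as small RNA of the wild-type strain N2. The other is small RNA bound to HRDE-1 that carries FLAG and StrepII tags, pulled with an anti-FLAG resin from ground worms pooled in one lysate (the coIP). The labels repeat the pull-down protocol for both libraries and do not state how the N2 RNA was prepared, and the cloning did not depend on a 5′ monophosphate. The worms were lysed whole, so more cells with bound small RNA and more small RNA per cell cannot be told apart. Each group has 1 library, so no difference below has a replicate error or a p-value of its own. Intervals are at 95% and cover counting error only.

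HRDE-1 is an Argonaute protein that works in germline nuclei. It binds small interfering RNAs that RNA-dependent RNA polymerases copy from target transcripts, and it directs transcriptional silencing and methylation of histone H3 at lysine 9 at the matching loci. C. elegans autosomes have a gene-dense centre with little meiotic recombination and arms on either side that recombine more, carry more repeats and transposon remnants, and are richer in that histone mark. The question for III is how the small RNA bound by HRDE-1 is spread over its arms, next to the small RNA of N2.

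Signal is given in ppm, parts of 1000000 of each library's column sum. In the bins of the whole series, N2 held 2161929.95 read equivalents and the coIP 4831658, and 1 read was worth 0.453 ppm in N2 and 0.204 ppm in the coIP. Empty bins carry a floor that amounts to 0.195 ppm in N2 and 0.121 ppm in the coIP. Ratios of summed signal were formed from read equivalents above that floor, each as a share of its library. Log2 ratios of single bins were formed after adding 0.121 ppm, so they understate the difference of low bins. A bin counted as measured at a mean over N2 and coIP of 0.351 ppm or more, which is the median over all values of both columns.

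With all bins included, the arms differed from each other in N2 and were closer in the coIP. The left arm held 92528 ppm of N2 and 36684 ppm of the coIP, a ratio of 0.392 (0.389 to 0.394). The right arm held 17424 ppm of N2 and 50052 ppm of the coIP, a ratio of 2.96 (2.93 to 2.99). A single place made the difference: III 2172001 to 2174000, a pair of adjacent bins, held 84.5% of the N2 signal of the left arm. Without that pair the left arm held 14308 ppm of N2 and 34778 ppm of the coIP, a ratio of 2.52 (2.49 to 2.55), so both arms then lay on the coIP side. The arms were then closer to each other in N2 than in the coIP. The 2 highest N2 bins of the right arm held 11.5% of its N2 signal. The centre of III had a ratio of 0.398 (0.396 to 0.400), and 1.25 (1.25 to 1.26) without its highest N2 bin. The series leaned to the coIP as well once its strongest bins were left out. Without the 10 highest bins of either library, ratios of summed ppm, floor included, were 1.60 in the series and 1.76 in the 10 other arms. On that measure the left and right arm of III had 2.43 and 2.87, rank 6 and 3 of 12 arms, and the centre 1.25.

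Among the 12 chromosome arms of the genome, the left arm of III had the lowest summed coIP signal and, through the same pair of bins, the highest summed N2 signal. Arms differ in length, so densities per bin were also compared. Leaving out the 10 highest bins of either library, its density of coIP signal was 8.41 ppm per bin, against 12.1 ppm in the right arm, 9.96 ppm in the centre of III and 11.3 ppm in the 10 other arms together. Its density of N2 signal was 3.46 ppm per bin, against 4.21 ppm in the right arm, 7.98 ppm in the centre and 6.41 ppm in the other arms. The left arm of V was sparser in both, with 7.16 ppm of the coIP and 2.70 ppm of N2 per bin. The highest densities among the 12 arms were 16.2 ppm of the coIP, in the right arm of II, and 13.4 ppm of N2, in the right arm of V. Both arms of III thus had a lower N2 density than the centre, while their coIP densities lay on either side of that of the centre.

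Over bins, both arms leaned towards the coIP. Of 2759 measured bins in the left arm, 670 (24.3%) had a coIP signal at least 4-fold above N2 (higher bins) and 142 (5.15%) one at least 4-fold below it (lower bins). For the right arm these were 620 (21.0%) and 170 (5.77%) of 2948 measured bins. Over all measured bins of the series, 19.4% were higher and 9.04% lower. The shares of higher bins in the arms therefore lay a little above the series, and those of lower bins below it. In the centre of III, 597 of 3640 measured bins (16.4%) were higher and 311 (8.54%) lower. The left arm ranked 4 and the right arm 10 of 12 arms for the share of higher bins, and 11 and 9 for the share of lower bins, where the lowest and highest arms had 13.0% and 31.5% higher bins. The split of calls follows the scaling. Of the called bins of the left arm, 82.5% were higher under library totals, 71.1% when scaled by the median of ratios and 57.3% with totals that leave out the 10 highest bins of either library. For the right arm these shares were 78.5%, 65.4% and 51.6%.

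The log2 ratio of coIP over N2 had a median over measured bins of 1.05 (0.97 to 1.05) in the left arm and 0.95 (0.89 to 1.02) in the right arm, against 0.54 (0.48 to 0.63) in the centre of III and 0.95 in the 10 other arms. The median over all measured bins was 0.73, so the arms lay above it by 0.32 and 0.22 and the centre below it by 0.19. Scaled by the median of ratios, all measured bins had a median of 0.32, and the same differences were 0.32 and 0.21 for the arms and -0.21 for the centre. Such a scaling shifts all log2 ratios of the same bins by nearly the same amount, so these differences could hardly change. With totals that leave out the 10 highest bins of either library, the arms had medians of 0.48 and 0.36 and the centre one of -0.10. With 10 times the pseudocount the contrast shrank: all measured bins had a median of 0.33, and the arms lay above it by 0.14 and 0.12 and the centre at -0.01 from it. These medians rest on few reads. In the left arm, 407 of the 670 higher bins (60.7%) had at most 3 N2 reads, and in the right arm 374 of 620 (60.3%). Among them, 198 in the left arm and 162 in the right arm were at the N2 floor. Such bins count as measured only through their coIP signal, the same value that calls them higher, so the minimum itself favours that call. It also raises the medians, since any bin at the N2 floor is measured only with a coIP signal above N2. Among bins at 10 times the minimum, where 32.7% of the series was at least 4-fold higher, the left arm had 354 of 793 (44.6%) and the right arm 342 of 961 (35.6%). The centre had 374 of 1668 (22.4%) and the 10 other arms 3729 of 9258 (40.3%). Medians there were 1.77 (1.55 to 1.91), 1.37 (1.23 to 1.48) and 0.75 (0.66 to 0.83) in the left arm, right arm and centre, against 1.58 (1.54 to 1.63) in the other arms.

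**Figure D1:**
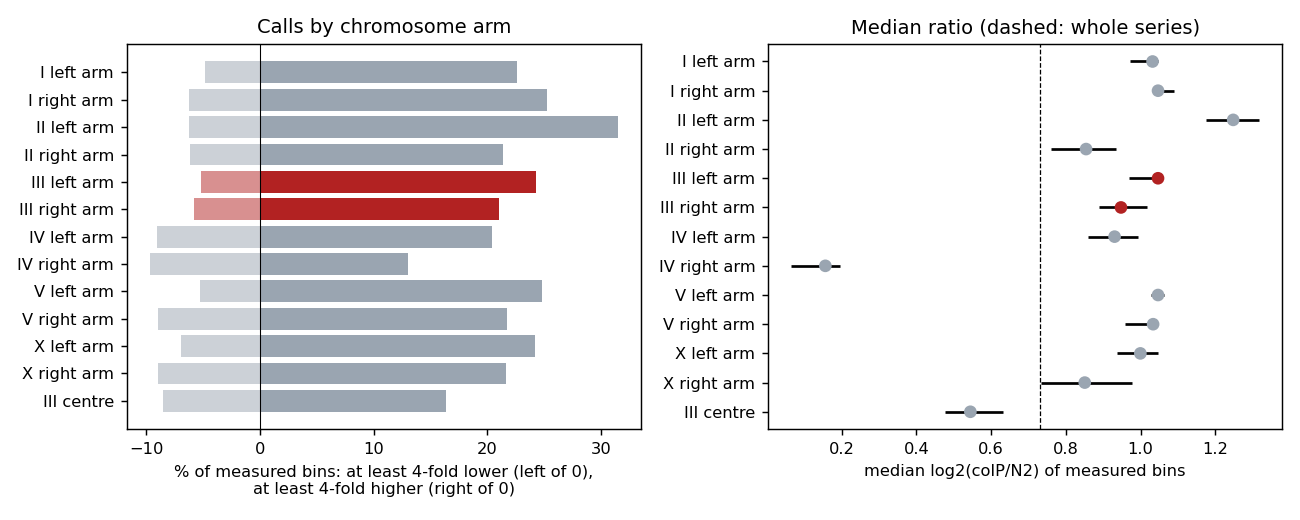
Left: percent of measured bins that were at least 4-fold higher (dark bars, right of 0) or lower (pale bars, left of 0) in the HRDE-1 coIP, for each chromosome arm and the centre of III. Right: median log2 ratio of coIP over N2 of measured bins with its 95% interval, bins taken as independent, and the series median of 0.73 as a dashed line. The arms of III (red) sit at 1.05 and 0.95, above the centre of III at 0.54 and within the range of the other arms. Bins at the N2 floor are measured only with a coIP signal above N2, which raises these medians.

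The ratio of summed signal was largest in the outer tiles of the left arm and varied without such an order along the right. Each arm was divided into tiles of 500 kb from the chromosome end. In the left arm the 3 outer tiles held 4980, 7397 and 4982 ppm of the coIP and 1242, 1844 and 1127 ppm of N2, with ratios of 4.27 (4.10 to 4.45), 4.17 (4.03 to 4.31) and 4.74 (4.54 to 4.95). The tile from 1.5 to 2 Mb had a ratio of 2.49 (2.38 to 2.60). The next tile held 80844 ppm of N2, or 2624 ppm without the pair of bins at 2172001 to 2174000, and its ratio without them was 1.40 (1.36 to 1.44). Farther in, the ratios were 2.87 (2.74 to 3.01), 1.32 (1.29 to 1.36), 1.90 (1.83 to 1.97) and, in the short last tile, 2.05 (1.91 to 2.20). The 3 outer tiles thus had the largest ratios, and those farther in did not fall in order. Single N2 bins weigh on these sums: in the tile with the ratio of 1.32, the bin 3153001 to 3154000 gave 32.0% of the N2 signal.

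Higher bins made up 27.3%, 28.9% and 32.9% of measured bins in the 3 outer tiles of the left arm, between 21.3% and 24.2% in the next 4, and 13.9% and 8.57% in the innermost pair. Median log2 ratios ran from 1.28 in the third tile to 0.53 in the last. Over the outer 2 Mb the median was 1.15 (1.07 to 1.26), and over the inner part 0.76 (0.64 to 0.91). At 10 times the minimum these medians were 2.09 (1.90 to 2.34) and 1.33 (1.08 to 1.64), so the outer part lay above the inner part there too. The order of single tiles did not hold at that minimum: the fourth tile had a median of 2.22 and 55.9% higher bins, above the second tile with 1.80 and 47.9%.

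The right arm was more even. Over its outer 2 Mb the median was 1.05 (0.99 to 1.12) and over the inner part 0.80 (0.72 to 0.92), and the ratios of summed signal were 2.92 (2.88 to 2.96) and 3.02 (2.97 to 3.08). Its 9 tiles had ratios from 1.79, at 2.5 to 3 Mb from the end, to 3.81 at 2 to 2.5 Mb. The tile at 0.5 to 1 Mb from the end held the most coIP signal, 11820 ppm, of which the bin 13162001 to 13163000 alone gave 22.2%. In the tile at 1.5 to 2 Mb the bin 11936001 to 11937000 gave 40.8% of the N2 signal. At 10 times the minimum the intervals of the outer and inner medians, 1.48 (1.31 to 1.74) and 1.20 (0.93 to 1.42), overlapped. The tile medians were lower farther in than 2.5 Mb from the end, a point read off these same values. Intervals of some tiles overlapped across it. The third tile had 1.01 (0.88 to 1.08) and the last 0.94 (0.45 to 1.30), so a step was not resolved. Over measured bins they were 1.01 to 1.10 outside that point and 0.63 to 0.94 inside it. At 10 times the minimum they were 1.09 to 2.22 and 0.65 to 1.02. The tile at 2 to 2.5 Mb, with the 2.22, counted as inner in the cut at 2 Mb. The 11 full tiles of 500 kb in the centre had medians from 0.21 to 0.73, and 6 of the 9 left tiles and 8 of the 9 right tiles lay above all of them.

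**Figure D2:**
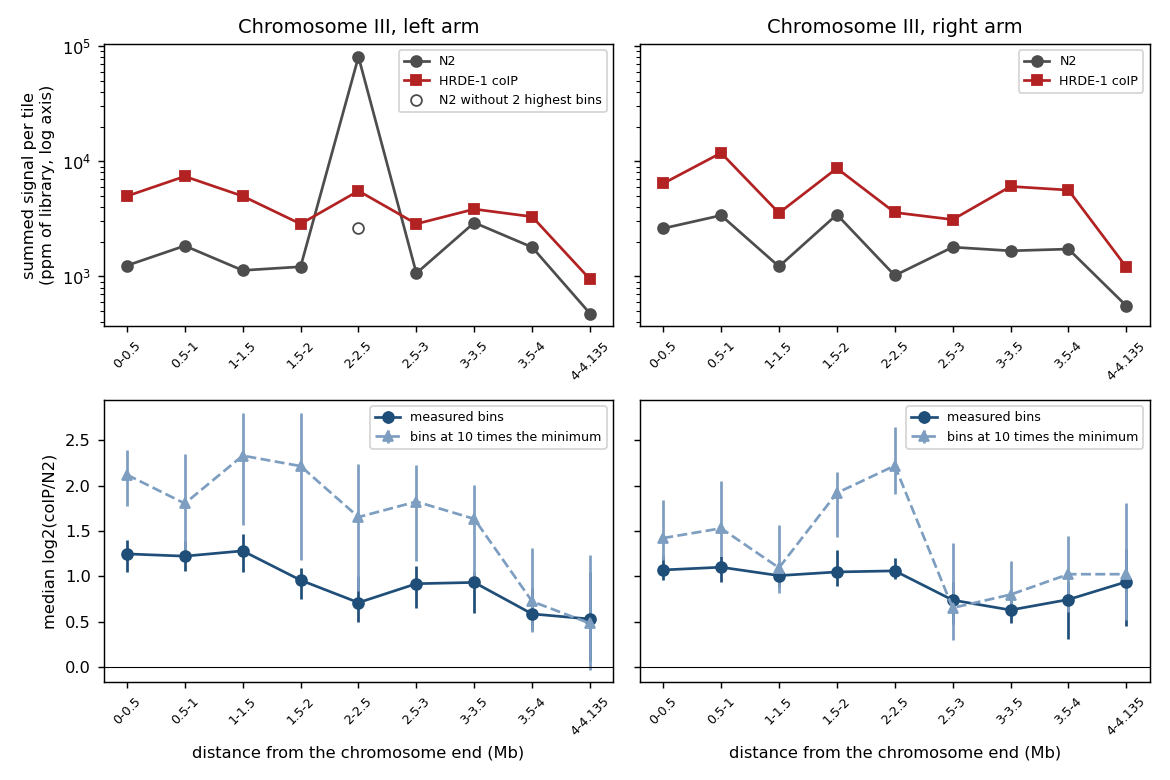
Top: summed signal of N2 (grey) and the HRDE-1 coIP (red) in tiles of 500 kb, in ppm on a log axis, against the distance from the chromosome end. The open circle gives the N2 value of the fifth left tile without its 2 highest bins, 2624 ppm in place of 80844 ppm. Bottom: median log2 ratio per tile with its 95% interval, for measured bins and for bins at 10 times the minimum, with the left arm going from 1.25 at the end to 0.53 at its inner limit.

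The outermost 100 kb carried little small RNA at either end. On the left, these bins held 120 ppm of N2 and 147 ppm of the coIP, a ratio of 1.33 (1.14 to 1.55), and their highest coIP bin had 19.8 ppm. On the right they held 216 ppm of N2 and 483 ppm of the coIP, a ratio of 2.37 (2.14 to 2.64). The following 400 kb held 1122 ppm of N2 and 4833 ppm of the coIP on the left, a ratio of 4.55 (4.36 to 4.75). On the right they held 2395 and 5931 ppm, a ratio of 2.52 (2.45 to 2.60). The left end therefore had a lower ratio in its last 100 kb than in the stretch next to it, while the 2 intervals of the right end overlapped.

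Most runs of higher bins in the arms were a single bin, while some were longer. Bridging gaps of 1 bin, the left arm had 301 runs of higher bins, of which 167 were a single bin and 45 were at least 5 kb long. The runs of at least 5 kb held 47.3% of the coIP signal of the arm. On the right 193 of 321 runs were a single bin, and the 30 that reached 5 kb held 26.6%. In the centre 200 of 336 were a single bin, and the 25 of at least 5 kb held 12.2%. How many longer runs scattered calls would give was not tested. All higher runs together held 71.6% of the coIP and 3.84% of the N2 signal of the left arm, and 73.2% and 27.7% in the right arm. The N2 share of the left arm is small because the pair of bins at 2172001 to 2174000 is in the total.

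The 6 runs with the most coIP signal in the left arm held 21.6% of its coIP signal, and none carried a mark of the authors. The first was III 832001 to 837000 with 531 ppm of N2 and 2548 ppm of the coIP, or 4.77 times as much (4.50 to 5.07). Nearly all of it came from the adjacent bins at 834001 and 835001, with 1427 and 1114 ppm in the coIP and 266 and 264 ppm in N2. The other 3 bins of that run held under 4 ppm in either library. In III 948001 to 956000 the coIP held 1889 ppm and N2 259 ppm, a ratio of 7.27 (6.68 to 7.93), spread over 8 bins that ranged from 2.37 to 705 ppm in the coIP.

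Further in on the left, III 1177001 to 1182000 held 74.9 ppm of N2 and 976 ppm of the coIP, 13.1 times as much (11.2 to 15.4), and all of its 5 bins were called higher. III 1086001 to 1091000 had a ratio of 6.56 (5.82 to 7.41) and III 2403001 to 2408000 one of 7.99 (6.97 to 9.20). The longest run of the arm, III 1447001 to 1467000, spanned 20 kb. N2 gave it 44.7 ppm and the coIP 849 ppm, a ratio of 20.6 (16.7 to 25.7), and 6 of its 20 bins had no N2 read. Its coIP signal was uneven, from 0.944 to 232 ppm per bin, and the 6 bins from 1451001 to 1457000 each had under 4 ppm.

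The right arm held larger single runs. Its first, III 13161001 to 13165000, held 962 ppm of N2 and 4957 ppm of the coIP, with a ratio of 5.12 (4.90 to 5.36), and made up 9.90% of the coIP signal of the arm. Its 4 bins had 70.1, 2621, 1451 and 814 ppm in the coIP and 15.4, 601, 217 and 129 ppm in N2, so both libraries peaked in the same bin. The third of them carried the authors' GRH mark. III 12856001 to 12870000 was broader, with 258 ppm of N2, 2140 ppm of the coIP and a ratio of 8.31 (7.63 to 9.06), and 13 of its 14 bins were called higher.

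The next run by coIP signal, III 10141001 to 10143000, had the largest ratio of these 6. Its 2 bins had 16.1 and 25.9 ppm of N2 against 804 and 914 ppm of the coIP, and their ratio was 41.0 (33.4 to 51.0). The others of the right arm were III 10444001 to 10446000 with a ratio of 6.59 (6.03 to 7.22), III 11890001 to 11895000 with 4.23 (3.92 to 4.58) and the single bin 12041001 to 12042000 with 6.09 (5.52 to 6.73). The longest run of the arm, III 11588001 to 11605000, was not among these 6. All of its 17 bins were called higher, and it held 133 ppm of N2 and 1007 ppm of the coIP, with a ratio of 7.66 (6.80 to 8.66). Together the 6 runs held 25.9% of the coIP signal of the arm. Scaled by the median of ratios, the runs III 832001 to 837000, 13161001 to 13165000 and 11890001 to 11895000 had ratios of 3.47, 3.72 and 3.07, under 4-fold.

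**Figure D3:**
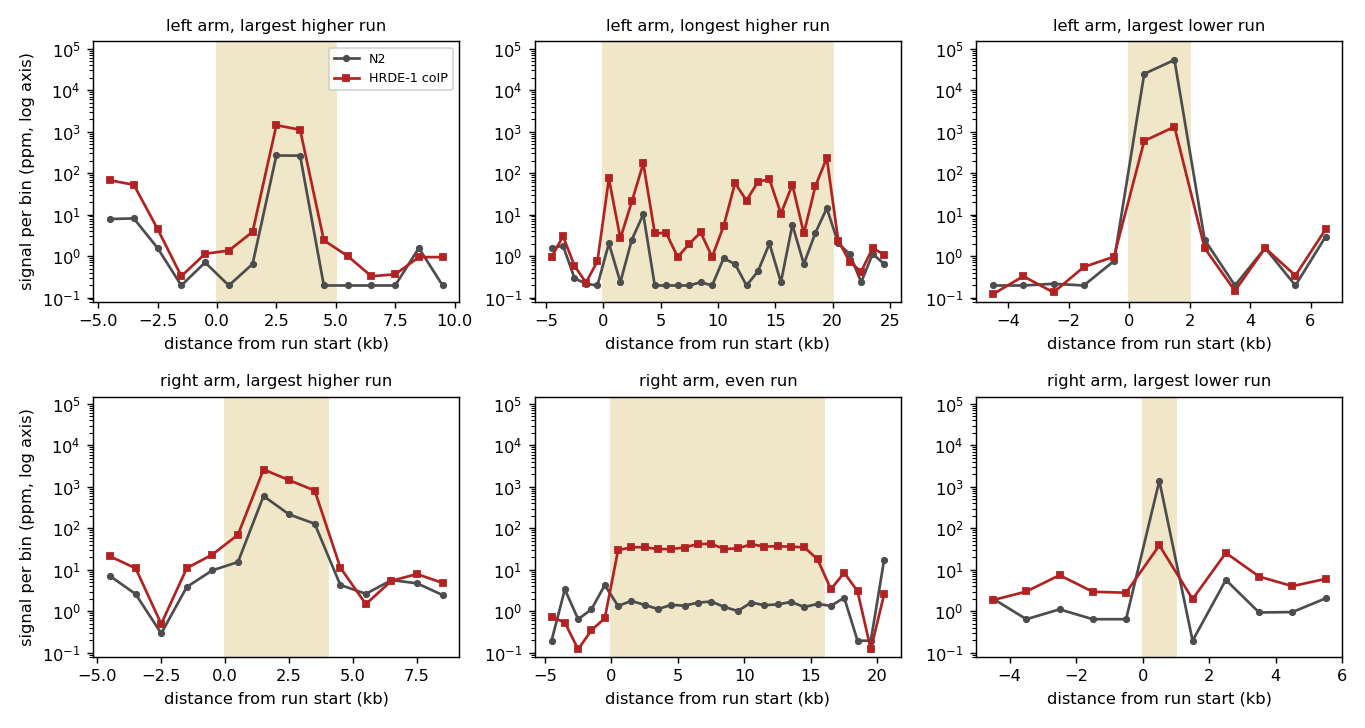
Signal per 1 kb bin of N2 (grey) and the HRDE-1 coIP (red), in ppm on a log axis, against the distance from the start of 6 runs (shaded) with 5 kb on each side. The largest higher runs peak in the same bins in both libraries, and the even run of the right arm stays between 17.9 and 42.0 ppm in the coIP. The lower run with the most N2 signal in each arm is 1 or 2 bins wide.

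Some runs carried coIP signal over few N2 reads. In the left arm, III 1703001 to 1707000 held 230 ppm in the coIP over 8.01 N2 read equivalents, a ratio of 62.6 (31.7 to 145). III 1243001 to 1252000 had a ratio of 44.8 (28.9 to 73.8) over 19.8 N2 reads, and III 2922001 to 2935000 one of 36.9 (23.3 to 62.3) over 18.1 reads. III 1672001 to 1677000 rested on 3.01 N2 reads, and its ratio of 42.8 had an interval from 14.5 to 208. In the right arm, III 11456001 to 11463000 held 576 ppm in the coIP and had a ratio of 56.5 (37.4 to 90.1) over 22.3 N2 reads. III 13475001 to 13479000 had one of 37.4 (24.1 to 61.4) over 19.9 reads, and III 10528001 to 10533000 one of 35.3 (26.4 to 48.3) over 46.0 reads. The counting intervals of these ratios overlap, so their order is not resolved. The runs were picked for their large ratios, which the intervals do not allow for.

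One run of the right arm had nearly the same level in every bin. In III 13584001 to 13600000, all 16 bins were called higher, and the values lay between 17.9 and 42.0 ppm in the coIP and between 1.02 and 1.78 ppm in N2. The run had a ratio of 27.3 (20.3 to 37.7) over 43.9 N2 read equivalents. None of its 16 N2 values was a whole number of reads within 0.0055 of the deposited scale, and 1 of its coIP values was. The sources used here do not say how reads with several matching sites were treated, and their part in these values was not tested. Of the values above the floor, 51.4% were whole in N2 and 29.2% in the coIP in the left arm, and 49.2% and 25.5% in the right arm. The centre of III had 68.8% and 38.9%.

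Bins with no N2 read held a small part of the coIP signal. In the left arm 1534 bins were at the N2 floor, and they held 2.77% of the coIP signal of the arm. Of these, 330 had at least 3 coIP reads and 86 at least 10. On the right 1276 bins were at the N2 floor with 1.56% of the coIP signal, 278 with at least 3 and 60 with at least 10 coIP reads. The highest was III 1247001 to 1248000 in the left arm with 194 coIP reads, at least 29.0-fold higher when N2 is set to 3 reads for the bin. In the right arm III 11460001 to 11461000 had 178 reads, at least 26.5-fold higher. Both lie inside runs named above.

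Lower bins were fewer. In both arms their runs had a median length of 1 kb, as had those of higher bins. The longest lower run spanned 15 kb in the left arm and 8 kb in the right arm, against 20 and 17 kb for higher runs. The run III 2172001 to 2174000 in the left arm held 24727 and 53492 ppm of N2 in its 2 bins, and 597 and 1309 ppm of the coIP. It was 41.3-fold lower in the coIP (40.5 to 42.2), and the 2 bins taken singly were 41.8-fold and 41.2-fold lower. Despite that, its second bin was the second highest coIP bin of the arm, and the pair held 5.20% of the coIP signal of the arm. The bins next to the pair held little signal in either library.

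The other lower runs of the left arm held far less N2 signal. III 3149001 to 3154000 held 1298 ppm of N2, most of it in the bin at 3153001 with 936 ppm, and was 30.7-fold lower (26.6 to 35.5). III 2426001 to 2434000 was 12.6-fold lower (11.1 to 14.3) and III 2030001 to 2033000 was 40.5-fold lower (30.4 to 55.0). In the right arm the highest N2 bin was III 11936001 to 11937000 with 1404 ppm, which was 36.4-fold lower (31.4 to 42.4) and held 99.5% of the N2 signal of the 5 bins centred on it. III 13660001 to 13661000, with 574 ppm of N2, was 8.87-fold lower (7.83 to 10.1) and held 99.9% of its 5 bins. III 10982001 to 10990000 was 12.0-fold lower (10.0 to 14.6) and III 11787001 to 11793000 was 58.9-fold lower (38.7 to 94.1). The right arm thus had no counterpart in size to the pair of bins of the left arm.

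The width of peaks was compared by the share of a bin in its surroundings. For the 50 lower bins with the most N2 signal in each arm, the bin's share of the N2 signal in the 5 bins centred on it had a median of 69.9% in the left arm and 67.1% in the right arm, and 11 bins of each arm held over 90%. For the 50 higher bins with the most coIP signal, the medians of the coIP share were 48.5% and 51.8%, and 1 bin of the left arm and 4 of the right arm held over 90%. In the centre of III the medians were 85.4% for lower and 56.5% for higher bins. The lower quartiles of the left arm were 34.6% for lower and 35.6% for higher bins, so the difference of the medians did not hold over the whole range. The sets differ in level too, since the lower bins reach down to 18.8 and 12.8 ppm of N2 and the higher bins to 129 and 170 ppm of the coIP. No test was made of these widths.

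At like N2 signal, the order of arms and centre differed between classes. Bins at the N2 floor made up 37.1% of left arm bins, and those with up to 3 N2 reads 35.7%. At the N2 floor the median coIP signal was 0.218, 0.194 and 0.133 ppm in the left arm, right arm and centre, near the coIP floor of 0.121 ppm. With up to 3 N2 reads it was 0.762, 0.738 and 0.557 ppm, and the intervals of the arms met or overlapped that of the centre. Among bins with over 3 and up to 10 N2 reads, the median coIP signal was 3.41 ppm (3.18 to 3.80) in the left arm, 3.80 ppm (3.39 to 4.17) in the right arm and 3.84 ppm (3.61 to 4.21) in the centre, with intervals that overlap. Among bins with over 10 and up to 30 N2 reads, the median coIP signal was 12.4 ppm (10.3 to 15.8) over 247 bins of the left arm, 9.43 ppm (7.90 to 11.4) over 305 bins of the right arm and 8.65 ppm (8.12 to 9.28) over 702 bins of the centre. The 10 other arms had 11.0 ppm (10.3 to 11.9). With over 30 and up to 100 N2 reads, the medians were 31.8 ppm (13.7 to 63.9) in the left arm and 42.3 ppm (23.5 to 61.1) in the right arm, against 16.1 ppm (11.4 to 19.9) in the centre and 36.1 ppm (30.8 to 42.8) in the other arms. In that class, 29.7% of left and 29.8% of right arm bins reached 100 ppm in the coIP, against 17.2% in the centre and 24.1% in the other arms. The interval of the right arm overlapped that of the centre for over 10 to 30 reads, and the interval of the left arm did so for over 30 to 100 reads.

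In the highest N2 classes the median coIP signals of the arms of III were not resolved from each other at this number of bins. Lower calls made up a larger share of the strongest N2 bins in the left arm than in the right arm. With over 100 and up to 300 N2 reads, the medians were 45.3 ppm (9.28 to 216) in the left and 159 ppm (27.0 to 270) in the right arm. Of the 14 left arm bins with over 300 N2 reads, 12 were called lower and 2 higher, and their median coIP signal was 25.5 ppm (6.46 to 1114). The right arm had 13 such bins, of which 5 were lower and 5 higher, with a median of 566 ppm (4.53 to 1286). The intervals overlap in both classes. In the 10 other arms 130 of 265 such bins were lower and 67 higher. Of bins with at least 100 ppm in N2, 15 of 19 in the left arm and 6 of 19 in the right arm were called lower, where the series had 51.5%. Of bins with at least 100 ppm in the coIP, 62 of 73 in the left arm and 86 of 103 in the right arm were at least 4-fold higher, where the series had 72.2%. In the centre of III that was 76 of 101. Choosing bins by a high signal in either library itself favours the call towards that library.

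**Figure D4:**
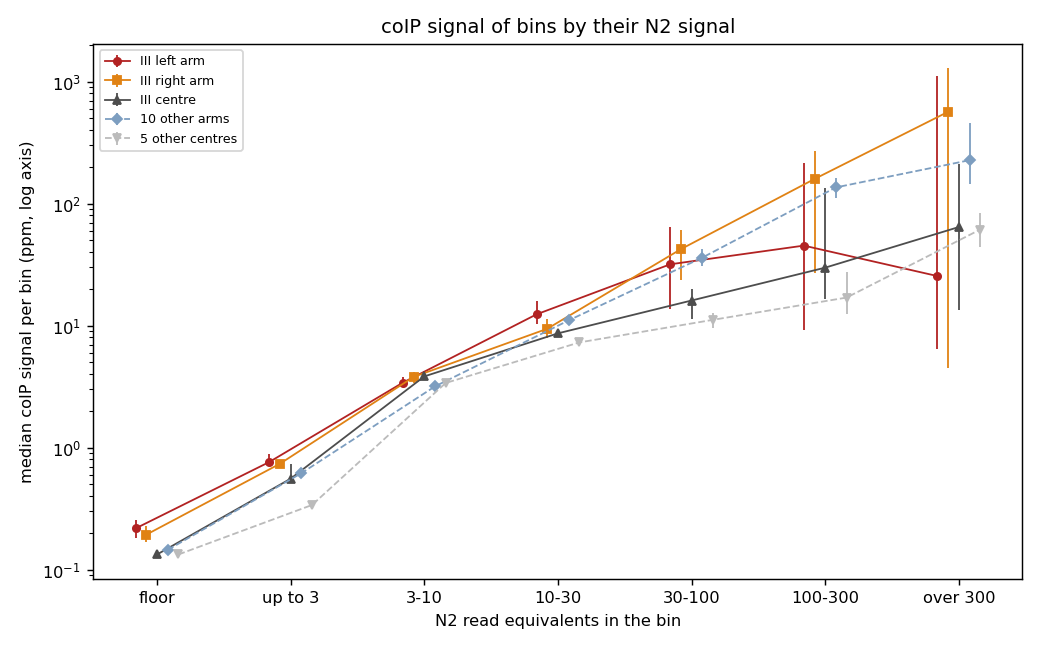
Median coIP signal per bin, in ppm on a log axis, of bins grouped by their N2 read equivalents, for the arms and centre of III, the 10 other arms and the 5 other centres. Error bars are 95% intervals that take bins as independent. From over 10 to 100 N2 reads the arms of III lie at 9.43 to 42.3 ppm and the centre of III at 8.65 and 16.1 ppm, and over 300 reads the intervals of the arms span most of the axis.

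The authors' deposited table marks bins as GRTS or GRH, which in published work on HRDE-1 stand for loci of germline nuclear RNAi-mediated transcriptional silencing and heterochromatin. How the marks were set is not given in the sources used here, so they may rest on related small RNA data. In the authors' deposited table the left arm of III has 2 GRTS and 8 GRH bins and the right arm 6 GRTS and 13 GRH bins, of 191 and 215 in the series, and none carries both. All 29 were measured. None was called lower, and 2 of the 8 GRTS and 8 of the 21 GRH bins were at least 4-fold higher. These are 25% and 38.1%, where 22.6% of all measured bins of both arms were higher and 5.47% lower, so the GRTS share is near that background. Over the series, 39 of 190 measured GRTS bins (20.5%) and 90 of 213 GRH bins (42.3%) were higher. The median log2 ratio was 1.22 for GRTS and 1.68 for GRH bins, against 0.99 for unmarked measured bins of both arms. Over the series the medians were 1.45 and 1.88. The marked bins were also stronger, with a median coIP signal of 128 ppm for GRTS and 104 ppm for GRH bins against 1.78 ppm for unmarked measured bins, and the part of this level in their ratios was not tested.

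The GRTS bins of the right arm lay mostly in one place. III 13239001 to 13243000 held 86.9, 99.1, 48.8 and 67.0 ppm of N2 in its 4 bins and 203, 232, 89.0 and 141 ppm of the coIP, with a ratio of 2.19 (2.02 to 2.39), and the bin at 13231001 had a ratio of 2.84 (1.98 to 4.20). Both lie in a stretch of 15 bins, 13228001 to 13243000, in which every bin had at least 13.7 ppm in the coIP and none was at least 4-fold higher. That stretch had a ratio of 2.31 (2.18 to 2.45). The bin 12382001 to 12383000 differed from these, with 8.14 ppm of N2, 55.9 ppm of the coIP and a ratio of 6.97 (4.30 to 12.0). In the left arm, the GRTS bins at 2803001 and 3443001 had ratios of 2.22 (1.86 to 2.66) and 4.71 (3.55 to 6.37).

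GRH bins covered a wider range. The highest was III 13163001 to 13164000 in the right arm with 1451 ppm in the coIP and a ratio of 6.66 (6.07 to 7.32). III 10452001 to 10454000 had 9.89 (8.47 to 11.6), the bin at 10444001 had 9.59 (7.79 to 11.9), the bin at 12880001 had 6.16 (5.34 to 7.13) and III 10055001 to 10059000 had 4.45 (4.07 to 4.87). In the left arm, the bin at 2605001 had 68.7 ppm of N2, 556 ppm of the coIP and a ratio of 8.06 (6.84 to 9.56). III 3452001 to 3456000 had 176 ppm of N2, 731 ppm of the coIP and a ratio of 4.14 (3.73 to 4.61). It closes the longest stretch of the left arm in which every bin had at least 10 ppm in the coIP, III 3443001 to 3456000, which also holds the GRTS bin at 3443001. The GRH bins at 3858001, 3861001 and 3862001 held only 2.18 to 4.44 ppm in the coIP, and for each the interval of the ratio of its run included 1.

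**Figure D5:**
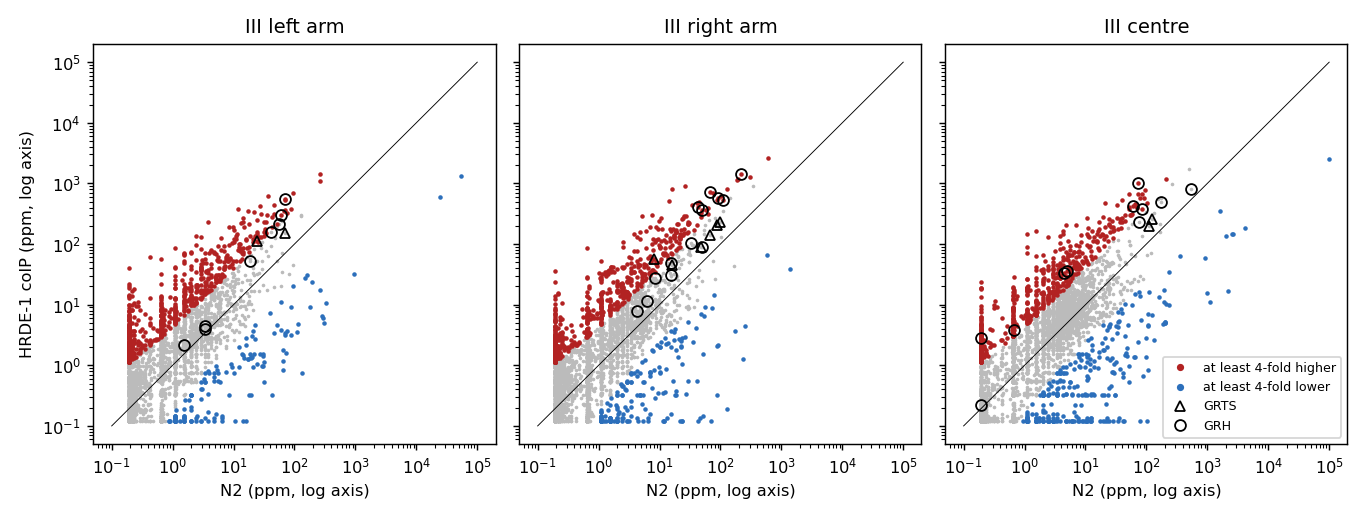
Each point is a 1 kb bin of the left arm, the right arm or the centre of III, with its N2 signal against its coIP signal in ppm, both on log axes. Red and blue points are at least 4-fold higher or lower in the coIP, the line marks equal signal, triangles are GRTS bins and circles GRH bins. The 2 left arm bins at 24727 and 53492 ppm of N2 lie far to the right of all other arm bins, and all 29 marked arm bins lie above the line.

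Of the 50 highest coIP bins in each arm, 5 in the left arm (10.0%) and 8 in the right arm (16.0%) carried a mark, where marks cover 0.242% and 0.459% of all bins of these arms. Those are 5 of the 10 marked bins of the left arm and 8 of the 19 of the right arm. Of the same 50 bins, 41 in each arm were at least 4-fold higher, against 36 of 50 in the centre of III, and the choice by coIP signal itself favours that call. GRH bins held 3.54% of the coIP signal of the left arm and 8.73% of that of the right arm, and GRTS bins 0.732% and 1.53%. Most of the coIP signal of both arms therefore lay in unmarked bins, among them 10 of the 12 runs described above by their coIP signal.

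In the authors' deposited table, the p-value of coIP against N2 was at or under 0.05 in 773 bins of the left arm (18.7%) and 815 of the right arm (19.7%). Over the series it was so in 17.4% of bins, and in the centre of III in 20.3%, so the arms were near the background. Of these bins in the authors' deposited table, 636 in the left arm (15.4%) and 643 in the right arm (15.6%) had the higher signal in the coIP, against 12.6% of all bins of the series, and 137 (3.31%) and 172 (4.16%) the lower, against 4.82%. The p-values are rounded, their method is not given, and with 1 library a side they compare libraries, not conditions. Of the bins at least 4-fold higher, 485 of 670 in the left arm and 446 of 620 in the right arm had such a p in the authors' deposited table. These are 72.4% and 71.9%, close to the 75.8% of all higher bins of the series in the authors' deposited table.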

How the data were processed

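Small RNA was sequenced in 1 N2 and 1 HRDE-1 coIP library of young adult hermaphrodites. The deposited signal is the authors' coverage per 1 kb bin over 6 chromosomes with a floor of 0.1. The submitters' processing notes name Bowtie 0.12.7. Which genome build was used, how reads were filtered, where reads with more than 1 site were placed and what total the values were scaled to: all of this is not given in the sources used here. The last bin of V ends at 20920000, before the last gene on V in WBcel235, so that annotation was not placed on the bins, and no gene or sequence is named. The authors' deposited p-value per bin and their GRTS and GRH marks were used as given.

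Each column was divided by its sum and set to ppm. Read equivalents were the value above the floor divided by the value of 1 read, 0.232 in N2 and 0.169 in the coIP, found from the spacing of low values. Many were fractions, so no count test was run. With 1 library a group there is no test, so bins past a 4-fold difference in either direction were counted, and neighbouring calls were joined over gaps of 1 bin. Exact intervals at 95% treat read equivalents as counts. Reads carry no molecular identifiers that are stated, so intervals and the limit of 3 reads for an empty bin cover counting error only. Intervals of medians take bins as independent.

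Named per arm were the 6 higher runs with the most coIP signal, 4 others of at least 2 bins and 50 ppm with the largest ratio, the 4 lower runs with the most N2 signal, the 3 highest bins of each library, the 5 largest marked runs of each kind and all tiles. The longest runs, the stretches of at least 10 ppm and the highest bins without an N2 read were added after their values were seen. So was the cut at 2.5 Mb in the right arm. The members, rules and lists were chosen with earlier results of these data known. The calling was also run on simulated data, but that run did not cover bins with few N2 reads. It is therefore no check on higher bins with at most 3 N2 reads. These were 407 of 670 in the left arm and 374 of 620 in the right arm. Python 3.11.15, numpy 2.4.6, pandas 2.3.3 and scipy 1.17.1 were used. Other scalings, a higher minimum, a larger pseudocount and narrower arms were tried.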

Additional observations from a re-analysis of the deposited data

How the results depend on the processing

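Left and right arm are given in that order. With scaling by the median of ratios, higher bins were 430 and 402 in place of 670 and 620, median log2 ratios 0.63 and 0.53 in place of 1.05 and 0.95, and ratios of summed signal 0.288 and 2.09 in place of 0.396 and 2.87. With column sums that leave out the 10 highest bins of either library, higher bins were 392 and 354, lower bins 292 and 332 in place of 142 and 170, medians 0.48 and 0.36, and ratios 0.248 and 1.80. The 2 scalings act by moving the median of all measured bins from 0.73 to 0.32 and 0.13. Against those medians the arms lay 0.32 and 0.21 higher in the first and 0.35 and 0.23 higher in the other, close to the 0.32 and 0.22 under library totals. Each scaling shifts the log2 ratios of the same measured bins by nearly the same amount. This closeness was therefore set in advance and is no check of the arms. At 10 times the minimum, which tests fewer bins, higher bins were 354 and 342, lower bins 68 and 75, and medians 1.77 and 1.37. With 10 times the pseudocount they were 310 and 296, 75 and 73, and 0.46 and 0.45, where all measured bins had 0.33 and the centre 0.32, so the arms then led by 0.14 and 0.12. With arms as the outer 20%, lower bins were 80 and 94, medians 1.07 and 1.04, and the left ratio 0.314. Without its 2 highest N2 bins, an alternative chosen after seeing the data, the left arm's ratio turned from 0.396 to 2.43. The ratios here include the floor. Of 40 values, 8 stayed within 1.5 times the count or within the interval, 31 moved beyond it and 1 changed direction. No paired analysis was possible because N2 and the coIP have a single library apiece. Counting error is largest for each ratio that rests on few N2 reads, and nothing here has a replicate.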
